A study of Drosophila melanogaster with 2 samples.

Results

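The genes described here are the cuticle protein genes of Drosophila melanogaster, taken as every protein-coding gene in Ensembl annotation release 115 whose symbol starts with Cpr and a digit, Twdl, Lcp, Pcp, Acp65A or Ccp84. The rule found 119 of 13968 protein-coding genes, with 70 Cpr, 25 Twdl, 15 Lcp, 7 Ccp84, 1 Pcp and 1 Acp65A gene. It used names only and no measured value. CHES-1-like is a forkhead transcription factor, and its binding was measured by chromatin immunoprecipitation and sequencing (ChIP-seq) in whole embryos aged 0 to 24 h. The embryos, of both sexes pooled, came from 1 transgenic line with a stable CHES-1-like gene fused to eGFP at the C terminus of its protein. What drives this fusion gene is not given in the sources used here. Per the sample descriptions an antibody against GFP was used, while the antibody field names CHES-1-like. The 2 samples are biological replicates 2 and 3 of this single group, with chromatin sonicated to 200 to 800 bp, and no second condition was studied.

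Insect cuticle is a layered extracellular coat of chitin and protein that epidermal cells secrete at their apical surface, and the first larval cuticle is laid down late in embryogenesis. Cpr proteins carry the Rebers and Riddiford chitin-binding domain. Lcp, Pcp, Acp65A and Ccp84 genes encode proteins of the same class, named for the larval, pupal or adult cuticle or for the chromosome band of their gene. Tweedle (Twdl) proteins are a separate insect family, in which some mutations change body shape. These genes are short, lie in tandem arrays and are transcribed in epidermis and other cuticle-forming cells for limited periods, so in whole embryos of mixed ages absence of binding and binding in few cells cannot be told apart.

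The sequences that carry the description are shown first. They were read from release 6 of the genome (dm6), which is RefSeq's assembly, with TATAAA on either strand (TTTATA where it lies on the other strand) and GACGC in capitals. The promoters run from 250 bases before to 50 bases after the annotated 5′ end of the gene, and the core promoters from 60 before to 40 after it. Cpr65Av (chr3L:6139925-6140224, minus strand), Cpr73D (chr3L:16957640-16957939, minus strand) and TwdlF (chr3R:4246770-4247069, plus strand) had the best-ranked pooled summits within 500 bp of a start among genes of arms 3L and 3R. TATAAA starts 27 bases before the 5′ end in Cpr65Av and 28 bases before it in TwdlF, while Cpr73D holds none of the 6 motifs searched.
Cpr65Av: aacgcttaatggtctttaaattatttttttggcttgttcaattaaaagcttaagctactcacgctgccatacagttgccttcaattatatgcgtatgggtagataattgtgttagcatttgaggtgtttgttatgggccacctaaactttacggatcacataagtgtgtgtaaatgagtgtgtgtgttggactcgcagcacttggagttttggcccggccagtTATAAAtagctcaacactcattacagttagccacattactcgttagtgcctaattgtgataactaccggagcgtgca
TwdlF: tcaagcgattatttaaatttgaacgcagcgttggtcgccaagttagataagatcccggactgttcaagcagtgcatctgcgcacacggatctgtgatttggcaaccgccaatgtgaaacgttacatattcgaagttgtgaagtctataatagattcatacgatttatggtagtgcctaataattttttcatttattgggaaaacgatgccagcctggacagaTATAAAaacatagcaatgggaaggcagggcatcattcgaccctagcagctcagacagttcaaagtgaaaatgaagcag
Cpr73D: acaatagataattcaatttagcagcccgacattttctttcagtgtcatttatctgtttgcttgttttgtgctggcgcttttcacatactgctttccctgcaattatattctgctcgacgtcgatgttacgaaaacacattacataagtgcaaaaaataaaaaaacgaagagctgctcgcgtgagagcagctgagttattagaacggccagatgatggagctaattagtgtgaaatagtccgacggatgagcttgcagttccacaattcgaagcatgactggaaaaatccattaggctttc

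The core promoters of the larval genes Lcp65Ag1 (chr3L:6135235-6135334, minus strand), Lcp65Ag2 (chr3L:6133554-6133653, minus strand) and Lcp65Ag3 (chr3L:6130950-6131049, minus strand) are shown side by side. Their letters are most alike after the 5′ end. TATAAA starts 24 bases before the 5′ end in Lcp65Ag2 and 28 bases before it in Lcp65Ag3. Lcp65Ag1 has no TATAAA there and has GACGC at 20 bases before its 5′ end.
Lcp65Ag1: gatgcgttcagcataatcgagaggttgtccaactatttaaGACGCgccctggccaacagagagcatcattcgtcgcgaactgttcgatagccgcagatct
Lcp65Ag2: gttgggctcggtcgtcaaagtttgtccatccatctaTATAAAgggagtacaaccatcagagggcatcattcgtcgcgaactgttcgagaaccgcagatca
Lcp65Ag3: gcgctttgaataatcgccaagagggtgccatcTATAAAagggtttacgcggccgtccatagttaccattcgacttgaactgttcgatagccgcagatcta

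The next pair are 201-base windows centred on thresholded summits. The first (chr3L:19516643-19516843, plus strand) is the strongest summit within 2 kb of any cuticle protein gene, beyond the 3′ end of Cpr76Ba. The second (chr3L:21304485-21304685, plus strand) lies 73 bp from the start of CG11309 and is the strongest summit flanking a cuticle gene cluster. It was chosen after its value was seen. The window near Cpr76Ba held none of the 6 motifs searched, and the one at CG11309 held TATAAA at 65 bases from the summit.
Summit near Cpr76Ba: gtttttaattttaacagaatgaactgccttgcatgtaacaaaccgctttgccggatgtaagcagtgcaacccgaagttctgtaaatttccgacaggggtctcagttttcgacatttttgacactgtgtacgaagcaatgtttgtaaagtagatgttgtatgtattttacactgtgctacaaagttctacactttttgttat
Summit at CG11309: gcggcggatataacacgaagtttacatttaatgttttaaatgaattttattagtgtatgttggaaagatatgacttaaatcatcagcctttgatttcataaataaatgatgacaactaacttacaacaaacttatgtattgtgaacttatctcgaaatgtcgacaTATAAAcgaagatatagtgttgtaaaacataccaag

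No cuticle protein gene had a thresholded CHES-1-like summit within 500 bp of any of its transcription start sites, against 3624 of all 13968 protein-coding genes (25.9%). The thresholded list holds 4599 summits that passed the irreproducible discovery rate procedure, and these were the 4599 strongest of the 30000 entries in the list made from both replicates pooled. A count of 0 in 119 genes allows a share of up to 2.52% by the limit of 3 counts, and the exact Clopper-Pearson interval at 95% reaches 3.05%, both for counting error over genes only. Neighbouring genes share sequence and summits, so they are not independent replicates.

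The gap to the genome-wide shares was present in each list and at both distances. Within 2 kb, 4 cuticle protein genes had a thresholded summit (3.36%), against 4717 of all genes (33.8%). Among pooled entries with a deposited q-value under 0.05, of which there were 9026, 1 cuticle protein gene had a summit within 500 bp (0.84%), against 5398 genes (38.6%), and 9 had one within 2 kb (7.56%), against 6756 genes (48.4%). With all 30000 pooled entries, which the deposited manifest describes as peaks and background, 21 cuticle protein genes had a summit within 500 bp (17.6%), against 7900 genes (56.6%), and 49 had one within 2 kb (41.2%), against 9837 genes (70.4%). A summit of such low rank was thus listed near a sizeable minority of these genes, while the thresholded list placed none at their starts.

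Each replicate list of 30000 entries gave the same picture. In replicate 2, 18 cuticle protein genes had a summit within 500 bp (15.1%), against 7876 genes (56.4%), and 39 had one within 2 kb (32.8%), against 9942 genes (71.2%). In replicate 3, 18 had one within 500 bp (15.1%), against 7804 genes (55.9%), and 49 had one within 2 kb (41.2%), against 10152 genes (72.7%). No summit of any rank in any of the 4 lists lay within 500 bp of 88 cuticle protein genes (73.9%), against 5085 of all genes (36.4%). Within 2 kb, 54 had none (45.4%), against 2950 of all genes (21.1%).

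**Figure D1:**
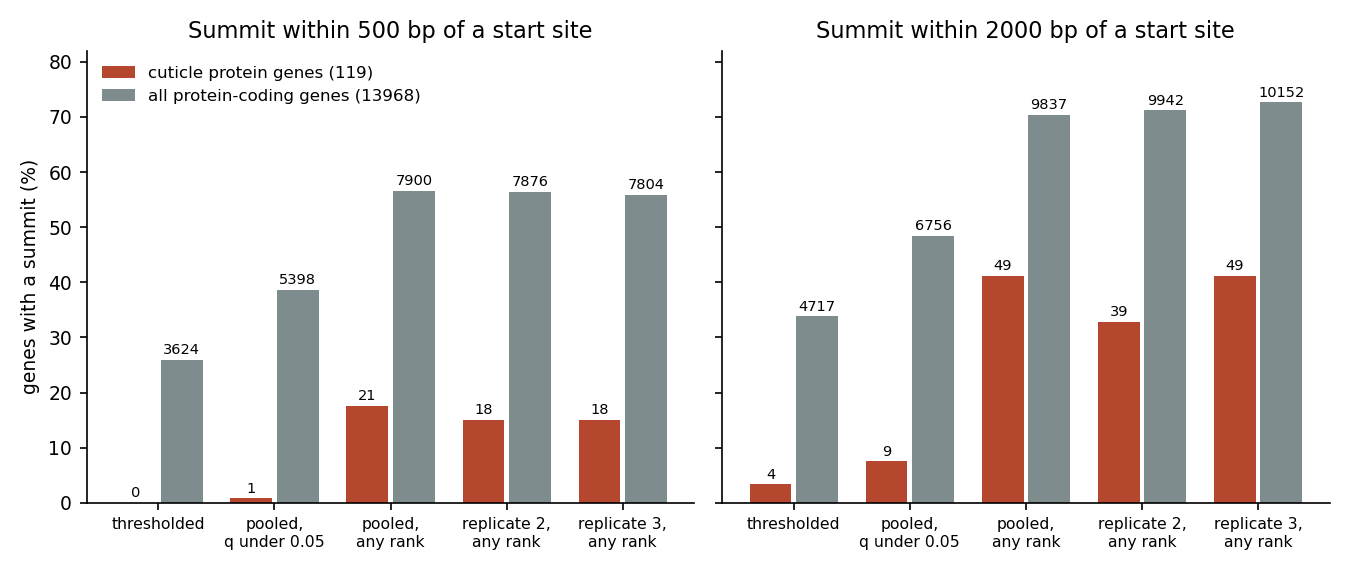
Share of genes (%) with a summit within 500 bp (left) or 2000 bp (right) of a start site in each list, for the 119 cuticle protein genes (red) and all 13968 protein-coding genes (grey), with the number of genes above each bar. The red bars run from 0 to 41.2% and each lies below its grey neighbour, which runs from 25.9% to 72.7%.

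The distances showed how far these genes lay from listed summits. The median distance from a cuticle protein gene to the nearest thresholded summit was 20546 bp, with a range of 525 to 72933 bp, against a median of 5551 bp over the 13945 genes on arms with a summit. To the nearest pooled summit of any rank the median was 2472 bp for cuticle protein genes and 286 bp for all genes. The genes for odorant, gustatory and ionotropic receptors, which are expressed in sensory neurons, had a thresholded summit within 500 bp in 2 of 179 cases (1.12%) and a pooled one in 13 (7.26%). Their median distances were 16491 bp to a thresholded and 5355 bp to a pooled summit. Genes for cytosolic ribosomal proteins, at the other end, had a thresholded summit within 500 bp in 70 of 93 cases (75.3%).

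**Figure D2:**
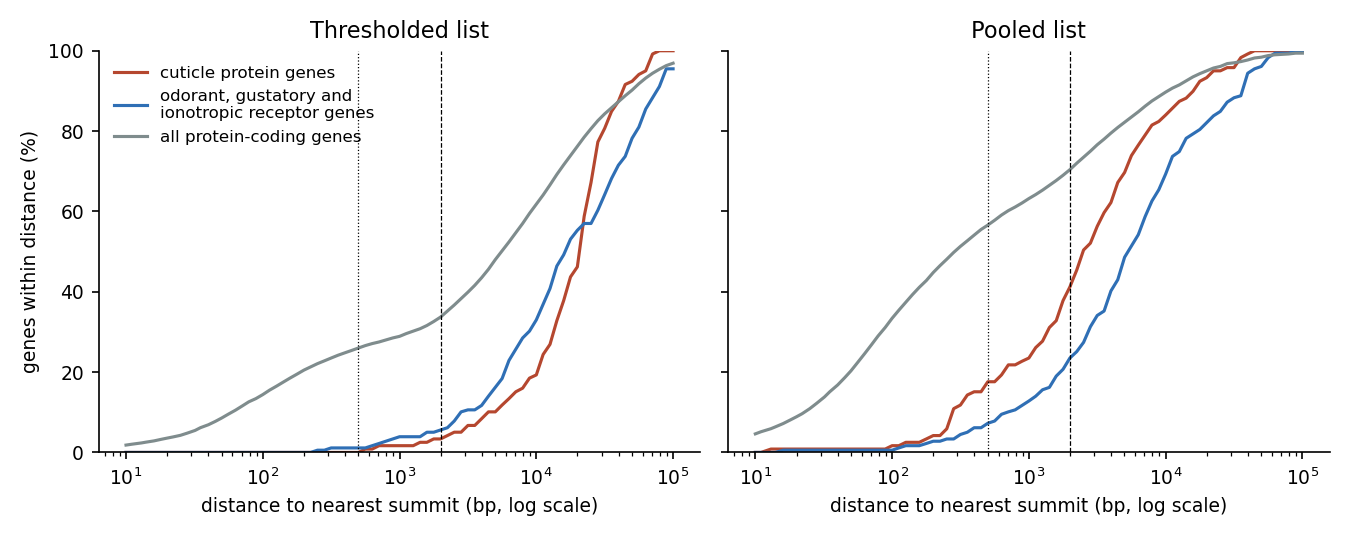
Cumulative share of genes (%) within a given distance (bp, log scale) of the nearest thresholded (left) or pooled (right) summit, for cuticle protein genes (red), receptor genes (blue) and all protein-coding genes (grey), with lines at 500 and 2000 bp. In the thresholded list the red curve starts at 525 bp and has a median of 20546 bp, against 5551 bp for the grey one. In the pooled list the red curve lies between the blue and the grey over most distances.

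The 4 cuticle protein genes with a thresholded summit within 2 kb were Lcp9, Cpr73D, Cpr47Eg and Cpr76Ba, and for 3 of them the summit lay nearer to the start of another gene. At Lcp9 (FBgn0025578) the summit was 525 bp from its start and 2 bp from the start of egg, which encodes a histone H3 lysine methyltransferase. It had a signal of 114 and rank 2835 in the pooled list, and the matching summit ranked 2349 in replicate 2 and 6097 in replicate 3. At Cpr47Eg (FBgn0086519) the summit was 1315 bp upstream and 35 bp from the start of Vhl, the substrate receptor of a ubiquitin ligase known for oxygen sensing. It had a signal of 161 and rank 1519, and ranked 2453 in replicate 2 and 1020 in replicate 3. At Cpr73D (FBgn0036680) the summit was 701 bp from its start, inside the gene, and 451 bp from a start of Ogdh, a subunit of the 2-oxoglutarate dehydrogenase complex whose annotation overlaps it. It had a signal of 138 and rank 2047, and ranked 1816 in replicate 2 and 2601 in replicate 3.

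Cpr76Ba (FBgn0036878) was the exception. Its summit, whose sequence is printed above, had a signal of 237 and rank 690, and the start of Cpr76Ba, 1589 bp away, was the nearest start of any annotated gene. The summit lay 809 bp beyond the 3′ end of the gene and so outside the cluster of Cpr76Ba, Cpr76Bb, Cpr76Bc and Cpr76Bd. It ranked 748 in replicate 2, with a signal of 130, and 720 in replicate 3, with a signal of 102, so it stood at a like place in both. The peak, chr3L:19516657-19516832, was 176 bp long, whereas the median thresholded peak was 430 bp and 364 of 4599 were under 200 bp. No annotated transposable element overlapped it, and none of its 31-base words occurred elsewhere in the genome. The fifth nearest gene, Cpr57A, lay just outside the limit at 2007 bp, and the farthest were Ccp84Ae at 67903 bp, Ccp84Af at 69422 bp and Ccp84Ag at 72933 bp.

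The q-value limit added Cpr60D, Cpr23B, Cpr65Ec, Cpr67Fb and Cpr67Fa2 within 2 kb, which are named after their values were seen. Close to Cpr60D a summit of rank 4641, which just missed the thresholded list, lay 86 bp from a start of ND-19, a subunit of respiratory complex I. A second summit, of rank 8581 and signal 54.3, lay 866 bp from a start of Cpr60D itself, the nearest protein-coding start, with matches at rank 17244 in replicate 2 and 5654 in replicate 3. The summit near Cpr23B, of rank 6841, lay 173 bp from the start of CG2975, and that near Cpr65Ec, of rank 7445, lay 199 bp from the start of form3, a formin. For Cpr67Fb the summit, of rank 8435, lay 698 bp from its own start and 1761 bp from that of Cpr67Fa2, in the intergenic stretch. It had a match in replicate 2 at rank 12984 and none within 100 bp in replicate 3. Just beyond that limit, replicate 3 listed a summit of rank 7271 and signal 29.4, 815 bp from the start of Cpr67Fb.

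The summits at the starts themselves were weak. Over the 21 cuticle protein genes with a pooled summit within 500 bp, the best such summit had a median signal of 31.3 (23.1 to 79.2) and a median rank of 19433 of 30000, against a median signal of 77.3 and rank of 5212 over the 7900 genes with one. The signal is the authors' value, used here only within a list. For 13 of the 21 the summit lay upstream of the start and for 8 downstream. A signal of 84.2 is the lowest in the thresholded list, so the strongest of these, at Lcp9, stood just below it.

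Lcp9 was the 1 gene of the 21 with a q-value under 0.05. Its summit, of rank 5043 and signal 79.2, lay 474 bp upstream of Lcp9 and 15 bp from the start of CG3594. In replicate 2 the best summit within 500 bp of Lcp9 had rank 7255 and signal 35.7. In replicate 3 it had rank 4165 and signal 40.9 and lay at exactly 500 bp, so with the 4599 best summits of replicate 3 in place of the thresholded list the count was 1. Lcp9 is a larval cuticle protein gene outside the clusters, between starts of other genes on both sides.

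The other best-ranked summits at starts had no q-value under 0.05. Cpr65Av (FBgn0052405), whose promoter is printed above, had a pooled summit 247 bp upstream with rank 11968 and signal 43.2. It ranked 20899 in replicate 2 and 10427 in replicate 3. Cpr73D had one 116 bp upstream with rank 13272 and signal 40.4, and the best summit ranked 8916 in replicate 2, at 112 bp upstream, and 11774 in replicate 3, at 120 bp downstream. Both genes encode chitin-binding cuticle proteins. TwdlF (FBgn0037224), of the Tweedle family, had one 281 bp downstream with rank 14143 and signal 38.7, listed at rank 9336 in replicate 3 and absent within 500 bp in replicate 2. Lcp65Ag3 (FBgn0086611) had one 279 bp downstream with rank 14546 and signal 37.9, listed at rank 13050 in replicate 2 and absent there in replicate 3. The replicates thus differed for TwdlF and Lcp65Ag3 in whether anything was listed within 500 bp.

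The rest of the 10 best-ranked were Cpr51A (rank 15376), Lcp2 and Lcp3 (rank 16975 for both), Cpr57A (rank 17360) and TwdlP (rank 17558). Lcp2 and Lcp3 share 1 summit between their starts, 259 and 266 bp upstream, which was listed in replicate 2 at rank 15574 and not within 500 bp in replicate 3. Cpr51A was listed in both, at rank 20175 in replicate 2 and rank 10114 in replicate 3. Cpr57A and TwdlP were listed within 500 bp in replicate 3, at ranks 28131 and 9484, and not in replicate 2. For Cpr57A, replicate 2 had a summit of rank 29545 just outside that window, at 506 bp.

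The replicates rarely listed a summit at the same cuticle protein gene. Of 30 cuticle protein genes with a summit within 500 bp in either replicate, 6 had one in both, whereas 6905 of 8775 genes did over the genome (78.7%). The 6 were Cpr51A, Cpr56F, Lcp9, Cpr65Av, Cpr65Aw and Cpr73D. At Cpr56F the ranks were 25195 in replicate 2 and 28259 in replicate 3, and at Cpr65Aw 25641 in replicate 2 and 20789 in replicate 3, in lists of 30000. Within 2 kb, 26 of 62 cuticle protein genes with a summit in either replicate had one in both (41.9%), against 9152 of 10942 genes (83.6%). The lower ranks at these genes moved with this difference, and their part in it was not tested.

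In all, 66 pooled summits lay within 2 kb of a cuticle protein gene, and 62 of them ranked below the thresholded list. By position, 35 were promoter summits (within 500 bp of a start of any protein-coding gene), 18 intergenic, 6 intronic, 4 in coding exons and 3 in other exons. The nearest start was a cuticle protein gene's for 48 and another gene's for 18. The 18 include the summit that lay 498 bp from starts of both Cpr57A and Obp57d. They also include one nearest to Edg78E, a cuticle protein gene outside the symbol rule. Among the 11 with a q-value under 0.05 were the 4 thresholded ones. A match within 100 bp was present in both replicate lists for 21 of the 66 and in at least 1 for 58. Classes and matches were not counted over all 30000 pooled summits, and a window around starts itself favours promoter summits.

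**Figure D3:**
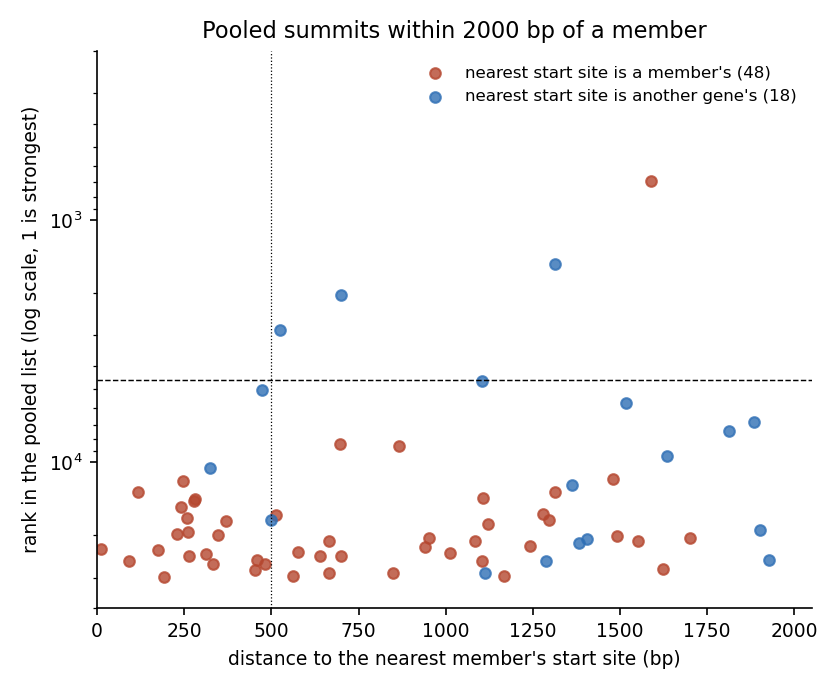
Each of the 66 pooled summits within 2000 bp of a cuticle protein gene by its distance (bp) to that gene's start and its rank in the pooled list (log scale, strongest at the top), red where a cuticle protein gene's start is nearest (48) and blue where another gene's is (18). The summit equally near to Cpr57A and Obp57d is blue. The 4 points above the dashed line at rank 4599 are the thresholded summits, 3 blue and 1 red, and none is left of the dotted line at 500 bp.

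The families shared the absence at starts. Among the 70 Cpr genes none had a thresholded summit within 500 bp and 3 had one within 2 kb, with pooled summits within 500 bp at 11 and within 2 kb at 27. Among the 25 Twdl genes none had a thresholded summit within either distance, and 6 had a pooled one within 500 bp and 10 within 2 kb. Among the 15 Lcp genes 1, Lcp9, had a thresholded summit within 2 kb, and 4 had a pooled one within 500 bp and 9 within 2 kb. Over all genes a thresholded summit lay within 500 bp of 25.9% and within 2 kb of 33.8%. For a pooled one the shares were 56.6% and 70.4%. The 7 Ccp84 genes had no summit within 500 bp in any list and lay a median of 66929 bp from a thresholded one. Pcp, a pupal gene nested in an intron of the Gart gene, lay 2452 bp from a thresholded summit, and Acp65Aa, an adult gene, 27923 bp, and neither had a pooled summit within 2 kb.

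By arm, 46 cuticle protein genes lie on 3L, 31 on 3R, 27 on 2R, 8 on X and 7 on 2L. A thresholded summit within 2 kb was found for 2 on 3L and 2 on 2R and for none on 3R, X or 2L. Over all genes, a thresholded summit lay within 2 kb of 973 of 2739 genes on 3L, 986 of 2852 on 2R, 1232 of 3421 on 3R, 675 of 2196 on X and 836 of 2657 on 2L. With counts this small, no difference between arms is drawn from the cuticle protein genes. None of the 8 genes on X had a pooled summit within 2 kb, against 1589 of the 2196 genes there, while replicate 3 listed a summit within 2 kb of 1 of the 8, against 1596.

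Most cuticle protein genes lie in arrays, and the arrays were poor in summits. With fewer than 20 kb between neighbours and at least 3 genes, 86 of the 119 fell into 15 clusters of 4.7 to 38.5 kb, together 241 kb. The clusters held 2 thresholded summits, or 0.83 per 100 kb, against 3.44 per 100 kb over the chromosome arms. They held 31 pooled summits of any rank, or 12.9 per 100 kb, against 22.4 over the arms. In replicate 2 they held 30 (12.5 per 100 kb) and in replicate 3 they held 23 (9.55 per 100 kb), each against 22.4 over the arms.

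Both thresholded summits inside a cluster lay in that from Cpr47Ea to Cpr47Eg, near TpnC47D, a troponin C gene located among the cuticle genes. They were 427 and 678 bp from its start, with ranks 4273 and 4476 and signals 88.0 and 85.7, close to the bottom of the thresholded list. The first had a match in replicate 3 at rank 4956 and none within 100 bp in replicate 2, and the second ranked 3376 in replicate 2 and 10390 in replicate 3. The other 14 clusters held none, and 5 of the 15 held no pooled summit either.

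The largest cluster, from Lcp65Ag3 to Cpr65Az, holds 18 cuticle protein genes in 31.2 kb and had 9 pooled summits, 28.8 per 100 kb, which is above the figure for the arms. That from TwdlM to TwdlD holds 12 in 21.9 kb and had 4, and that from Ccp84Ag to Ccp84Aa holds 7 in 18.2 kb and had 2. The cluster from Cpr49Aa to Cpr49Ah, the longest at 38.5 kb with 8 cuticle protein genes and 7 others, had no summit of any rank in any of the 4 lists. The cluster from Cpr78Ca to Cpr78Cc, of 9.31 kb, had the highest density, with 4 pooled summits or 43.0 per 100 kb.

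The nearest thresholded summits on each side of a cluster lie outside it by definition. Most were at the starts of genes with other roles, and the rest were in introns, in coding exons or between genes. The 33 cuticle protein genes outside the clusters lay a median of 13947 bp from a thresholded summit. For the 86 inside the median was 21494.5 bp, and over all genes 5551 bp. From the edge of a cluster to the nearest thresholded summit the distance was 809 to 54758 bp, with a median of 13729 bp. The values that follow were chosen after they were seen. CG11309, 3.41 kb beyond the Cpr78C cluster, had a summit of signal 523 and rank 107. DUBAI, a deubiquitinating enzyme gene 20.8 kb beyond the Cpr49A cluster, had one of signal 371 and rank 241. That at the start of goe, 7.58 kb beyond the cluster from TwdlX to Twdlalpha, had a signal of 300 and rank 415. The gene goe itself extends into that cluster. The nearest to the Ccp84 cluster, 54.8 kb away, lay 195 bp from a start of bcd, the maternal gene for the anterior determinant Bicoid, with a signal of 145 and rank 1851.

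**Figure D4:**
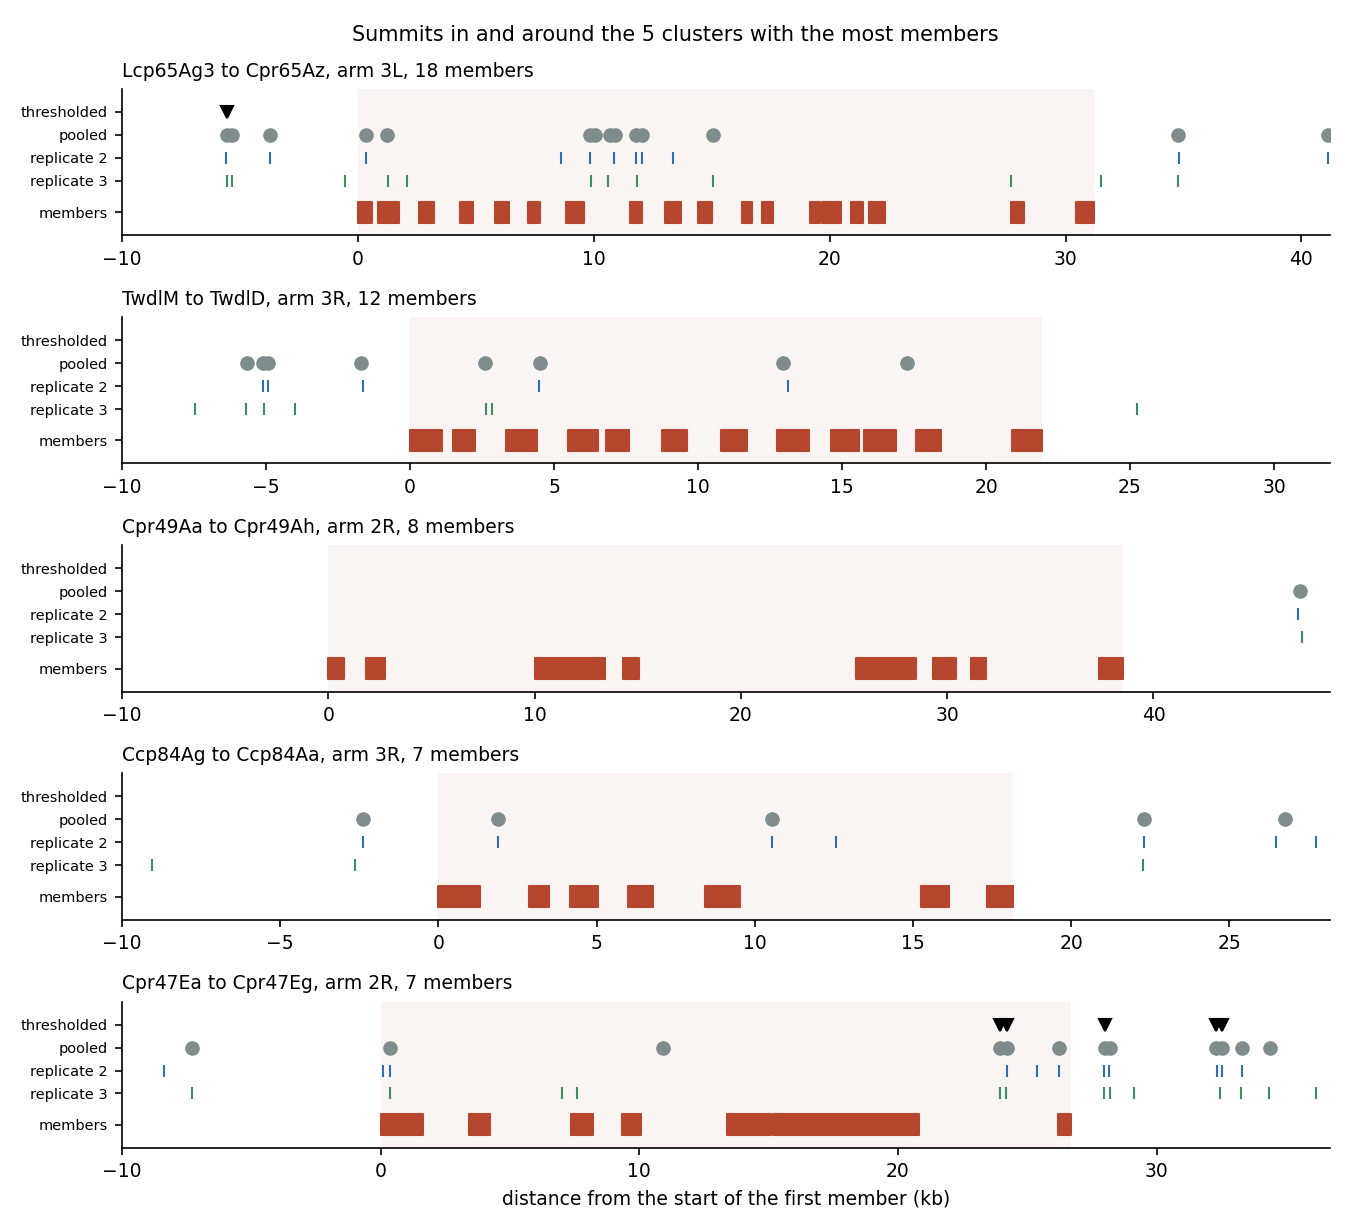
Summits of the 4 lists in and around the 5 clusters with the most cuticle protein genes, by distance (kb) from the start of the first gene, with the genes as red bars on the bottom row and the cluster shaded. The 2 black triangles within the shading, both in the cluster from Cpr47Ea to Cpr47Eg, are the 2 thresholded summits inside a cluster, and the shaded part of the cluster from Cpr49Aa to Cpr49Ah is empty in each list.

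Cuticle protein genes also differed from the genome in gene structure, which the naming rule did not use. Their median length was 957 bp, against 2164.5 bp over all genes, and 109 had 1 annotated start (91.6%), against 73.5% of all genes. A start of another protein-coding gene lay within 1000 bp for 14 of them (11.8%), against 42.8% of all genes. Among the 105 without such a neighbour, 0 had a thresholded summit within 500 bp and 14 had a pooled one (13.3%), against 14.4% and 43.0% of the 7983 genes without one. Since no cuticle protein gene had a thresholded summit there, the 0 is fixed in any such split. Of the 14 with a neighbour, 0 had a thresholded summit within 500 bp and 7 had a pooled one, against 41.3% and 74.6% of the 5985 genes with one.

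Near copies are common in this group, and the sources used here do not state how reads that match several places were treated. Within 500 bp of their starts, 16 cuticle protein genes had over 10% of their 31-base words elsewhere in the genome (13.4%), against 4.65% of all genes. The share was 90.4% at Lcp65Ab1 and at Lcp65Ab2, 76.4% at Cpr65Ax1 and 72.1% at Cpr65Ax2, and 40.8%, 38.5% and 37.6% at Lcp65Ag1, Lcp65Ag2 and Lcp65Ag3. At these genes, missing reads and missing binding cannot be told apart. Without the 16, 19 of 103 cuticle protein genes had a pooled summit within 500 bp (18.4%), against 58.3% of 13318 genes. A thresholded one was present at 0 of the 103, against 26.9%. That 0 is fixed, since no cuticle protein gene had one, so it cannot tell what part repeats have.

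The promoters of cuticle protein genes differed in composition from those of all genes. In the 300-base windows, TATAAA on the strand of the gene with its first base 40 to 20 bases before the 5′ end, the usual place of a TATA box, was present in 67 of 119 (56.3%), against 7.78% of all promoters. Among the 3624 genes with a thresholded summit within 500 bp it was present in 1.96%. It was also present in 1020 genes that are not cuticle protein genes, and the receptor genes were not counted separately. TATAAA anywhere on either strand was found in 74.8% of cuticle protein gene promoters, against 45.8% of all. By family, the placed TATAAA was found in 11 of 15 Lcp, 5 of 7 Ccp84, 15 of 25 Twdl and 34 of 70 Cpr genes, and in Pcp and Acp65Aa. A pair of elements known from broadly expressed genes, searched on both strands like every motif here, were rarer than in all promoters. TATCGATA, the DNA replication-related element (DRE), was in 1 promoter (0.84%), against 9.36% of all. GGTCACACT, the core of the Motif 1 element, was in none, against 6.04%.

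None of the motifs contains another. The forkhead site GTAAACA was in 6 cuticle protein gene promoters (5.04%), against 9.19% of all promoters and 12.1% of those with a thresholded summit. GAGAGAG was in 1 (0.84%), against 5.86% of all promoters. GACGC, a second site class known for forkhead proteins, was in 44 (37.0%), against 22.2% of all promoters and 23.9% of those with a thresholded summit. The median GC content was 44.0% in cuticle protein gene promoters, against 38.0% in all promoters and 37.7% in those with a thresholded summit. Such matches are descriptions of letters and not bound sites.

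Promoter letters and binding went together over the genome. Genes with a placed TATAAA had a thresholded summit within 500 bp in 71 of 1087 cases (6.53%), against 27.6% of the genes without one, and in 71 of 1020 (6.96%) once the cuticle protein genes were left out. Genes with a DRE had one in 46.7% of cases, against 23.8% without, and genes with Motif 1 in 47.6%, against 24.6% without. Among cuticle protein genes without a placed TATAAA, 0 of 52 had one. That 0 is fixed, since no cuticle protein gene had one, so it shows nothing about TATAAA. A placed TATAAA was in 10 of the 21 cuticle protein genes with a pooled summit within 500 bp (47.6%), against 56.3% of all 119. Whether promoter letters have a part in the missing summits was not tested. Each of these splits is over genes of 1 experiment and describes these lists.

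**Figure D5:**
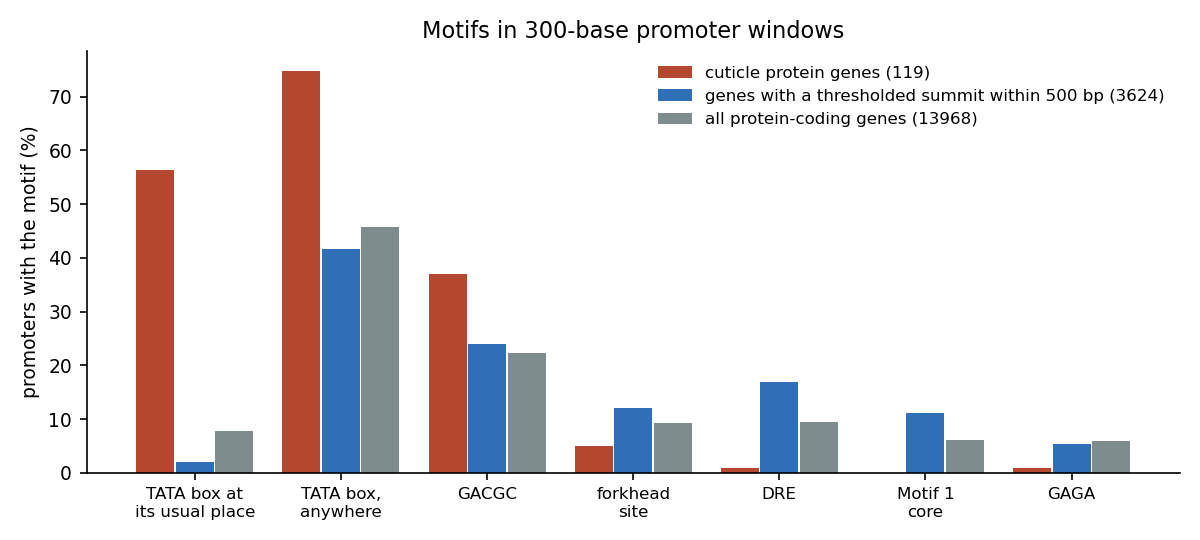
Share of promoters (%) with each motif in a window of 250 bases before to 50 after the 5′ end, for cuticle protein genes (red), genes with a thresholded summit within 500 bp (blue) and all protein-coding genes (grey). The placed TATA box is in 56.3%, 1.96% and 7.78% of the 3 groups, and the DRE in 0.84%, 16.8% and 9.36%.

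Other genes that make and harden cuticle were read from a list of 87 genes by role, of which 85 matched the annotation. Within 500 bp, 15 of the 85 had a thresholded summit (17.6%), against 25.9% of all genes, and 48 had a pooled one (56.5%), against 56.6%. The roles are given one by one, with 8 to 16 genes in each, and differences between them were not tested. Of 10 cuticle proteins whose names fall outside the rule, such as resilin and the Vajk proteins, none had a thresholded summit within 500 bp. At that distance 2, Edg84A and Vajk3, had a pooled one, like the cuticle protein genes above. Within 2 kb, 1 of the 10, Tb, had a thresholded summit, 1657 bp from its start, against 33.8% of all genes. That summit, of rank 3078, is also the nearest to the cluster from TwdlM to TwdlD.

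For each role below, the shares over all genes within 500 bp are 25.9% for a thresholded summit and 56.6% for a pooled one. Of 8 genes of chitin synthesis, 3 had a thresholded summit within 500 bp (37.5%) and 6 a pooled one. The 3 were mmy, the UDP-N-acetylglucosamine pyrophosphorylase, with a signal of 204 and rank 949, Gfat2, of the hexosamine pathway, with a signal of 108, and nst, the phosphoacetylglucosamine mutase, with a signal of 87.3. These 3 supply the sugar nucleotide that chitin and glycoproteins share. The chitin synthase gene kkv had no thresholded summit within 500 bp, the nearest being 1067 bp away. None of 11 genes for chitin organisation and deacetylation, such as knk and serp, had one, and 5 had a pooled one. Of 15 chitinases and chitinase-like factors, Cht7 (signal 110) and Cht11 (signal 108) had one. Of 11 zona pellucida proteins of the apical surface, dpy (signal 105) and qsm (signal 89.7) had one. None of 14 tanning and pigmentation genes, such as ple and Ddc, had a thresholded summit within 500 bp, and 7 had a pooled one.

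Of 16 transcription factors of epidermis and moulting, 8 had a thresholded summit within 500 bp, against 25.9% of all genes, and 15 had a pooled one, against 56.6%. Their median distance to a thresholded summit was 569.5 bp, against 5551 bp over all genes. The strongest was at Eip75B, an ecdysone-induced nuclear receptor, with a signal of 405 and rank 191, and ranks of 143 in replicate 2 and 309 in replicate 3. It was followed by usp, the partner of the ecdysone receptor, with a signal of 194, Hr39 with 183 and ftz-f1, a competence factor for ecdysone, with 124. The other 4 with a summit had signals of 95.4 to 113.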

How the data were processed

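CHES-1-like ChIP-seq summits were read from deposited dm6 lists of 2 biological replicates. Per the deposited manifests, a control library entered each list upstream and is not analysed here. The authors' signal, on the scale of its own list, and the −log10 of the q-value and the summit offset in bp, as the authors deposited them, were read from columns 7, 9 and 10, and the files hold no reads, so the depth is unknown. No source used here names the aligner, the peak caller or the cut-off of the irreproducible discovery rate. The dm3 lists were not used.

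Summits were ranked by signal. A gene was counted when a summit lay within 500 bp or 2 kb of any of its start sites (19630 over all genes). Lists were matched within 100 bp. Promoter windows were cut from the genome at Ensembl 5′ ends, since no promoter table was given. The members and lists were chosen with earlier results of these data known, and the placed TATA box, the repeat check and the split by neighbours after the files were opened. With 1 group of 2 samples, no p-value was computed, and counts stand beside those over all genes. Named genes are those with a thresholded summit within 2 kb, the 10 best-ranked at starts, those listed in both replicates, the nearest 5 and farthest 3, cluster ends and up to 4 bound genes a role, and any other gene named was chosen after its values were seen. Alternatives covered the window, starts, peak interval, replicates, threshold and cluster definition. The counting was tested on simulated data. Scripts ran on Python 3.11.15 with pandas 2.3.3, numpy 2.4.6, matplotlib 3.10.9 and scipy 1.17.1.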

Additional observations from a re-analysis of the deposited data

How the results depend on the processing

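The count of 0 cuticle protein genes with a thresholded summit within 500 bp became 2 at 1000 bp and 4 at 2000 bp, 2 when the deposited interval was used in place of the summit, and 1 with pooled entries of q under 0.05. With the 4599 best summits of a single replicate it ranged from 0 to 1. The 21 genes with a pooled summit became 7 at 250 bp, 49 at 2000 bp and 1 with q under 0.05. Within 2 kb, the 4 with a thresholded summit became 9 and the 49 with a pooled one became 9 under that limit. The 2 thresholded summits in clusters became 0 with a gap of 5 kb, 4 with q under 0.05, and 1 with either replicate alone. The 31 pooled ones became 20 in clusters of at least 5 genes and 4 with q under 0.05. The median distance of 20546 bp became 13296 bp with q under 0.05, a list of 9026 summits. The other 31 of 48 alternative values stayed at 0, moved by less than 1.5 times or, for the median, by less than the difference between replicates. No paired analysis was possible because the study has 1 group. Read depth, which is unknown, limits what a missing summit shows.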
